A study of Mus musculus with 24 samples.

Results

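The 10 genes described here belong to the inflammasome pathway and leave out the Aim2 receptor itself. They are the sensors Nlrp3 and Nlrp1b, the adaptor Pycard, the caspases Casp1, Casp4 and Casp8 and the pore protein Gsdmd. The others are the cytokines Il1b and Il18 and the decoy receptor Il1r2, which binds IL-1. The 10 genes were listed by name, and all were found by gene identifier among the 54446 rows of the gene count table. The cells were splenic CD4+ T cells of C57BL6 mice, WT or Aim2-/- (bred to lack the cytosolic DNA sensor Aim2, on the same background), taken unstimulated (0 h) or 3, 6 or 24 h after stimulation with anti-CD3 and anti-CD28 in RP10 medium. Each genotype had 3 mice, WT 1, 3 and 4 and Aim2-/- 1, 2 and 4, and each mouse gave 1 library at each time, 24 in all. Wherever 6 values are given in a row, they stand in that order of mice.

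Inflammasomes are cytosolic complexes in which a sensor such as Aim2, Nlrp3 or Nlrp1b recruits the adaptor protein ASC, the product of Pycard, which clusters and activates caspase-1. Caspase-1 matures the precursors of the cytokines IL-1β and IL-18 and cuts gasdermin D, whose released end forms pores in the plasma membrane, while mouse caspase-11, the product of Casp4, cuts gasdermin D after binding bacterial lipopolysaccharide. The complexes are known best from macrophages and other myeloid cells.

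The libraries held between 19715161 and 21627018 counts. Aim2, the targeted gene, was at 75.0 CPM (counts per library scaled to parts per 1000000 with TMM factors) in mouse WT 3 and 67.5 in WT 4 before stimulation, at 15.7 to 20.1 in the Aim2-/- mice, and at only 21.5 in the mouse labelled WT 1, which thus went against its label, as it did at the later times. The genotype calls are therefore given with and without that mouse. All 8 markers of CD4 T cells had counts in every group and summed to between 4930 and 5300 CPM at 0 h, so the label of the cells was met. Markers of several other blood cells were low but higher in the Aim2-/- libraries. At 0 h the 8 monocyte and macrophage markers summed to 35.6 to 57.7 CPM in WT and 107 to 343 CPM in Aim2-/- mice, the 6 basophil and mast cell markers to 13.3 to 15.4 against 65.2 to 135 CPM, and the 8 neutrophil markers to 0.300 to 6.77 against 4.58 to 68.8 CPM, with Ly6g at 0 in WT libraries. In these 3 sums the highest library was that of mouse Aim2-/- 1. Sums of B cell (8.37 to 10.2 against 16.2 to 42.3), dendritic cell (14.1 to 19.8 against 24.5 to 61.6) and NK cell markers (35.4 to 55.7 against 96.3 to 118) did not overlap between genotypes, while neutrophil, erythroid (5.83 to 53.4 against 15.4 to 250 CPM) and CD8 T cell markers (9.77 to 11.4 against 8.12 to 10.9) did. The NK cell sums were mostly Eomes (means of 31.0 and 88.8 CPM). The other NK cell markers overlapped: Klrb1c (6.55 to 11.7 against 7.68 to 13.8), Ncr1 (0.517 to 0.862 against 0.837 to 2.66) and Klre1 (3.15 to 4.55 against 3.74 to 7.02). The dendritic cell sums were mostly Zbtb46 (means of 13.8 and 27.6 CPM). Of the dendritic cell markers, Xcr1 alone had a lower mean in Aim2-/- mice (0.654 beside 0.883 CPM).

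The 10 genes spanned a wide range of levels. Divided by exon length, the mean over the 24 libraries was highest for Casp8 (55.3 CPM per kb) and Gsdmd (40.6), followed by Il1r2 (25.7), Casp1 (21), Casp4 (14.4) and Pycard (12.2). Il1b stood at 1.81, Il18 at 0.513, Nlrp3 at 0.357 and Nlrp1b at 0.247 CPM per kb. Neighbours in this order overlapped in their ranges over libraries. Il18 was the 1 member near the detection floor, taken as a median of at most 10 counts: it had a median of 8 counts, 0 to 31 per library, and 3 of 24 libraries held no more than 3 counts, a level of 0.129 to 0.155 CPM depending on depth. Nlrp3 (median 20.5 counts), Nlrp1b (31) and Il1b (40) were low but above the floor in every library, and 6, 1 and 2 of their libraries held at most 10 counts. The other 6 genes had at least 88 counts in every library. All 10 passed the filter on low counts and were tested among 15325 genes.

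**Figure D1:**
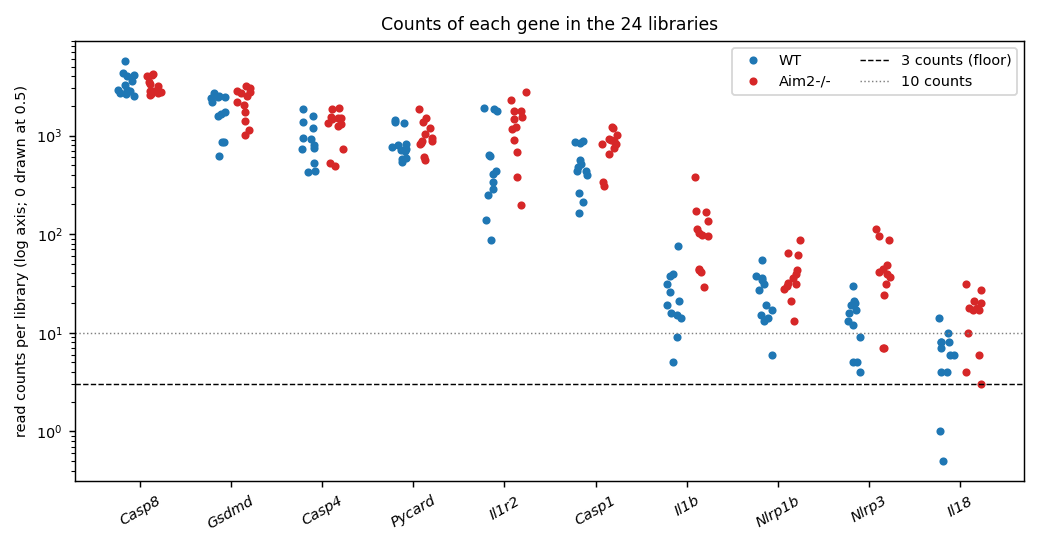
Read counts of the 10 genes in each of the 24 libraries on a log axis, WT in blue and Aim2-/- in red, with dashed and dotted lines at 3 and 10 counts and a count of 0 drawn at 0.5. Il18 alone had libraries at or under 3 counts, 3 of 24, while Casp8 lay between 2510 and 5733.

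The calls after stimulation were counted beside the share of all genes called. At 3 h in WT cells, 2 of 10 rose (Casp8, Gsdmd) and 0 fell, where 16.2% of all genes tested rose and 16.4% fell. At 6 h the same 2 rose and Pycard fell (26.4% and 24.8% of all genes), and at 24 h Pycard rose while Casp1, Casp4, Gsdmd, Il18 and Il1r2 fell (36.6% and 34.8%). In Aim2-/- cells the counts were 2 up and 1 down at 3 h (16.1% and 14.6% of all genes), 3 up and 1 down at 6 h (28.5% and 22.7%), and 1 up and 5 down at 24 h (36.8% and 33.5%), the last with the same 6 genes as in WT cells. From 6 h to 24 h Pycard was again the single gene that rose in either genotype, against 6 that fell in WT cells (29.6% of all genes rose and 28% fell) and 7 in Aim2-/- cells (27.4% and 27%). The median log2 change of the 10 genes at 24 h was -1.26 in WT and -1.08 in Aim2-/- cells, beside -0.01 and 0.03 over all genes. With library totals as the only scaling the split of all genes at 3 h moved to 3357 up and 1815 down in WT cells (2476 and 2516 with TMM factors) and to 3455 and 1529 in Aim2-/- cells (2461 and 2237), while every change called in the 10 genes was still called.

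**Figure D2:**
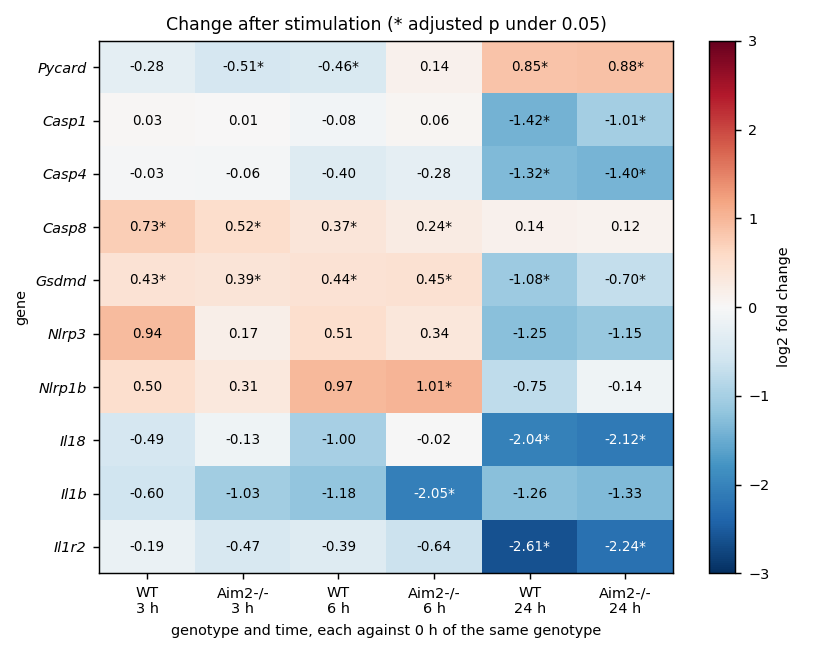
Log2 fold changes of the 10 genes against 0 h of the same genotype, red for higher and blue for lower, with an asterisk where the edgeR adjusted p was under 0.05. At 24 h Pycard is the 1 gene with an asterisk and a higher level, 0.85 in WT and 0.88 in Aim2-/- cells.

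The libraries of a mouse varied together, so each change was also tested within mice, with mouse as a block. In that fit 4 genes instead of 2 were called at 3 h in WT cells (42.7% of all genes tested, 32.6% without the block), 6 instead of 3 at 6 h (59.2%, 51.1% without), and 5 instead of 3 at 3 h in Aim2-/- cells (41.2%, 30.7% without), so these counts lay near the share of all genes. At 24 h the block called 8 in either genotype, with Nlrp3 and Il1b added to the fall (76.3% of all genes in WT and 75.8% in Aim2-/- cells). The values appear with each gene below.

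The levels in all libraries, mouse by mouse, showed a few shapes: a late rise (Pycard), an early rise that returned (Casp8), an early rise followed by a fall (Gsdmd), and a late fall (Casp1, Casp4, Il1r2).

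**Figure D3:**
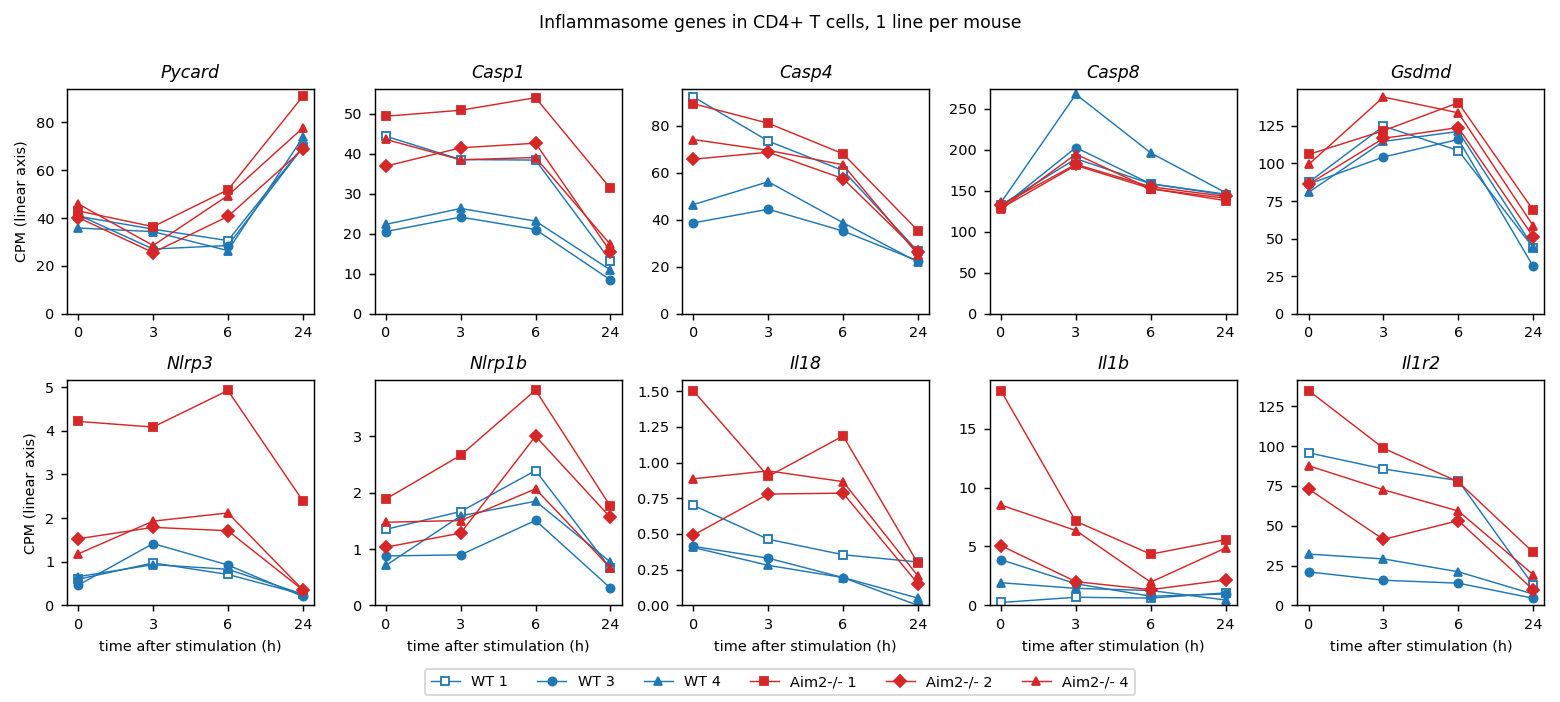
CPM of each gene by time after stimulation, 1 line per mouse, WT blue and Aim2-/- red, open squares for the mouse labelled WT 1. In the Casp1, Casp4 and Il1r2 panels the line of WT 1 lies above those of WT 3 and WT 4 at all 4 times.

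Pycard (chr7:127989708-127993867, minus strand, GRCm38) encodes the adaptor that links sensors to caspase-1. Its level before stimulation was 40.8, 41.3 and 35.9 CPM in the WT mice and 43.0, 40.2 and 45.9 CPM in the Aim2-/- mice. At 3 h it was 35.4, 27.1 and 34.3 against 36.4, 25.6 and 28.5 CPM. The fall at 3 h passed the test in Aim2-/- cells (log2 fold change -0.51 ± 0.13 SE, adjusted p 0.0052) but not in WT cells (-0.28, adjusted p 0.107, or 0.0227 with mouse as a block). The level was lower than at 0 h in each Aim2-/- mouse. The Aim2-/- call was lost without mouse Aim2-/- 4 (adjusted p 0.107) and kept with mouse as a block (-0.53, adjusted p 0.0002).

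The genotypes parted at 6 h. Pycard then stood at 30.6, 28.5 and 26.4 CPM in WT mice and at 51.8, 40.7 and 49.4 CPM in Aim2-/- mice, with no overlap. It was lower than at 0 h in each of the WT mice (-0.46 ± 0.13, adjusted p 0.0057) and higher in each of the Aim2-/- mice (0.14 ± 0.13, adjusted p 0.405). The genotype difference at 6 h was 0.73 ± 0.13 (adjusted p 0.0048, 0.01 without the mouse labelled WT 1 and 0.0555 without WT 4). The test of the difference between the changes from 0 h gave 0.60 ± 0.19 (adjusted p 0.171), or 0.59 (adjusted p 0.0203) with mouse as a block. At 24 h the level was 69.7, 69.6 and 73.7 CPM in WT and 90.8, 68.7 and 77.6 CPM in Aim2-/- mice, a rise of 0.85 ± 0.13 (adjusted p 6.0e-06) and 0.88 ± 0.13 (adjusted p 4.4e-06) that held with any mouse left out. The genotypes overlapped at 0, 3 and 24 h. Exons of the antisense gene model Gm45205 overlap Pycard, with 44 counts over all libraries beside 22845 for Pycard.

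Casp1 and Casp4 are neighbouring genes on chromosome 9 (chr9:5298517-5307265 and chr9:5308828-5336783, both plus strand) and moved alike. Casp1, the protease that matures IL-1β and IL-18, was at 44.4, 20.6 and 22.4 CPM in WT and 49.4, 36.9 and 43.6 CPM in Aim2-/- mice at 0 h. It was at 24.2 to 38.6 CPM in WT and 38.5 to 50.9 in Aim2-/- mice at 3 h and at 21.1 to 38.4 and 39.1 to 54.0 at 6 h, with no call against 0 h. At 24 h it was at 13.3, 8.48 and 10.98 CPM against 31.4, 15.6 and 17.3 CPM, below 0 h in every mouse. The fall was 2.67-fold in WT (-1.42 ± 0.31, adjusted p 0.00037) and 2.02-fold in Aim2-/- cells (-1.01 ± 0.30, adjusted p 0.0051, or 0.0632 without Aim2-/- 4).

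Casp4, which encodes caspase-11, was at 92.4, 38.7 and 46.5 CPM in WT and 89.4, 65.8 and 74.2 CPM in Aim2-/- mice at 0 h. At 3 h it lay at 44.5 to 73.5 and 68.8 to 81.1 CPM, and at 6 h at 35.2 to 61.0 and 57.5 to 68.1 CPM. With mouse as a block the 6 h level in WT cells was lower than at 0 h (-0.35, adjusted p 0.0154), a change that was not called without it. At 24 h all 6 mice were at 22.0 to 35.4 CPM: 26.6, 22.5 and 22.0 for the WT mice, then 35.4, 26.4 and 25.1 for the Aim2-/- mice. This fall was 2.50-fold in WT (-1.32 ± 0.26, adjusted p 0.00013) and 2.64-fold in Aim2-/- cells (-1.40 ± 0.26, adjusted p 6.8e-05) and held with any mouse left out.

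Il1r2 (chr1:40074079-40125231, plus strand) encodes a receptor that binds IL-1 without signalling. Its level differed widely between mice. At 0 h it was at 95.8, 21.04 and 32.2 CPM in WT and 135, 73.1 and 87.7 CPM in Aim2-/- mice, and at 6 h at 78.3, 14.0 and 21.1 against 77.6, 53.2 and 59.3 CPM. The mouse labelled WT 1 thus lay among or above the Aim2-/- mice at both times. At 24 h it was at 12.8, 4.52 and 7.13 against 33.4, 9.87 and 19.3 CPM, a fall of 6.10-fold in WT (-2.61 ± 0.71, adjusted p 0.0027) and 4.72-fold in Aim2-/- cells (-2.24 ± 0.68, adjusted p 0.0059) that held with any mouse left out. With mouse as a block Il1r2 was already lower at 6 h in WT cells (-0.47, adjusted p 0.0209) and at 3 h and 6 h in Aim2-/- cells (-0.51 and -0.60, adjusted p 0.0144 and 0.0029).

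For Casp1, Casp4 and Il1r2, and for the low Il18, all 3 Aim2-/- mice were above WT 3 and WT 4 at all 4 times, and so was the mouse labelled WT 1. For Gsdmd, Nlrp3 and Il1b the Aim2-/- mice were also above WT 3 and WT 4 at all 4 times. For Gsdmd at 0 h this was by less than the digits shown (86.3 CPM in both Aim2-/- 2 and WT 3). The mouse labelled WT 1 was above WT 3 and WT 4 at 2, 0 and 1 of the times for Gsdmd, Nlrp3 and Il1b. The 4 times share the same mice, and the share of all genes with such an order was not counted. With all mice and no block, edgeR called the genotype difference for none of Casp1, Casp4 and Il1r2 at any time with the filter on low counts. With no filter it called Casp1 at 6 and 24 h and Il1r2 at 24 h (adjusted p 0.0183, 0.0012 and 0.0254), and Casp1 also had 0.0191 at 6 h with mouse as a random block in limma-voom and 0.0356 at 24 h with DESeq2. With the mouse number as a block, which joins different mice of the genotypes, Casp1 was called at all 4 times (adjusted p 0.0005 to 0.0203), Il1r2 at 0, 6 and 24 h (0.0079 to 0.0135) and Casp4 at 6 h (0.0220), beside 15.2% to 36% of all genes. Number 2 is an Aim2-/- mouse only and number 3 a WT mouse only, so the genotype level in that fit rests on mice 1 and 4. Its p-values rest mostly on the spread between libraries of the same mouse, so they do not measure the spread between mice. Without the mouse labelled WT 1, Casp1, Casp4 and Il1r2 were all called at 0 h (log2 difference 1.01 for Casp1, 0.84 for Casp4 and 1.89 for Il1r2, adjusted p 0.0234, 0.0070 and 0.0245) and at 6 h (1.03, 0.77 and 1.85, adjusted p 0.0172, 0.0111 and 0.0219), and Casp1 also at 24 h (1.14, adjusted p 0.0386). At 0 h the monocyte and macrophage markers summed to 44.9 CPM in the mouse labelled WT 1, beside 57.7 and 35.6 in WT 3 and WT 4. The Aim2-/- mice then had 343, 107 and 178 CPM. At 3, 6 and 24 h WT 1 had the highest sum of the WT mice, at 43.6, 50.7 and 28.5 CPM. WT 3 had 36.7, 31.3 and 14.2 CPM at these times, and WT 4 had 22.1, 22.9 and 16.7 CPM. The lowest Aim2-/- sums were 52.1, 62.6 and 34.2 CPM. The 5 Treg markers, among them Foxp3, summed to 997 CPM in WT 1 beside 666 and 820 CPM in WT 3 and WT 4, and to 1180, 968 and 992 CPM in the Aim2-/- mice at 0 h. At 6 h these sums were 1690, 1320 and 1480 CPM in WT and 1520, 1450 and 1420 CPM in Aim2-/- mice, with WT 1 above all others, and at 3 h WT 1 (1220 CPM) was below WT 4 (1320 CPM). Il2ra was the largest part of the 6 h sums, at a mean of 894 CPM in WT and 633 CPM in Aim2-/- cells. Foxp3 alone did not order the mice as the sums did. It was at 85.0 to 117 CPM in WT and 135 to 171 CPM in Aim2-/- mice at 0 h. At 6 h it was at 189 to 257 against 260 to 369 CPM, and at 3 h the genotypes overlapped (209 to 329 against 287 to 326 CPM). The part of either set of cells in these differences was not tested, and in bulk RNA fewer cells of a type and less RNA per cell cannot be told apart.

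**Figure D4:**
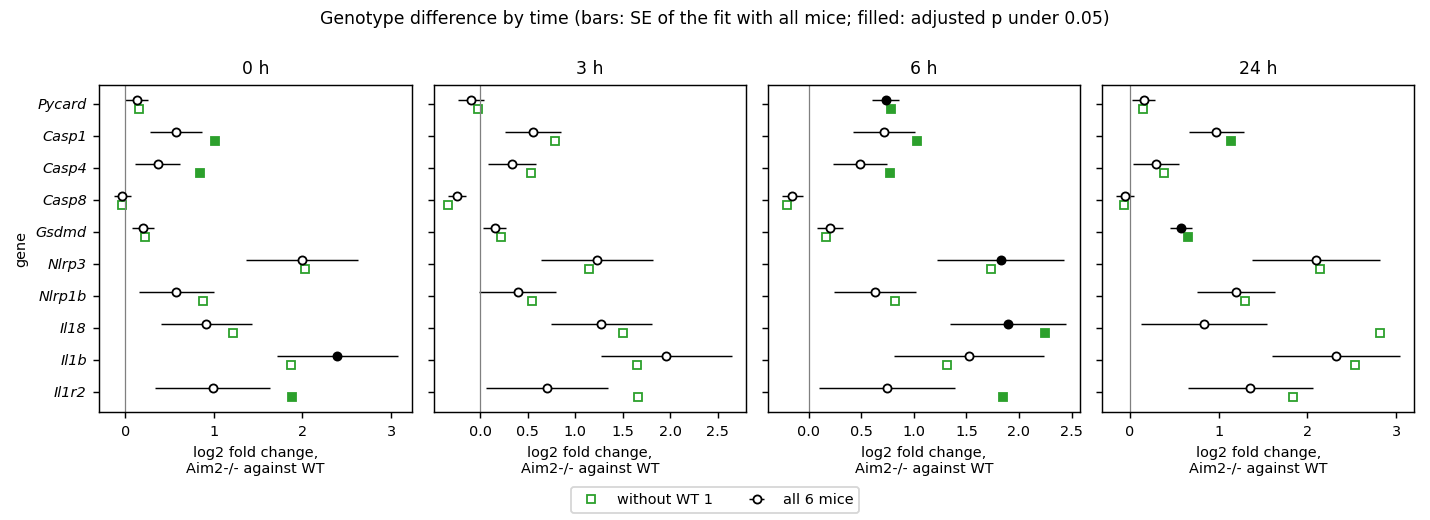
Log2 fold change of Aim2-/- against WT at each time, circles with SE bars for all 6 mice and green squares without the mouse labelled WT 1, filled where the adjusted p was under 0.05. At 0 h the Casp1, Casp4 and Il1r2 squares are filled and lie right of their open circles.

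The windows before the start sites of these late-changing genes were compared by sequence, since Casp1, Casp4 and Il1r2 fell and Pycard rose between 6 h and 24 h. RefSeq start sites on GRCm38.p6 gave 12 windows of 250 bases for 9 of the 10 genes, all but Gsdmd. Each was searched on both strands for GAAANNGAA (an IRF element, in 7.16% of 27025 mouse windows), TTCNNNGAA (a STAT element, 7.18%), GGNNTTTCC (a kappaB element, 4.84%) and TGANTCA (an AP-1 element, 6.87%). Capitals mark a match, and each window is written 5′ to 3′ on the strand of its gene. The Casp1 window is chr9:5298267-5298516 (plus), that of Casp4 chr9:5308599-5308848 (plus), that of Il1r2 chr1:40085843-40086092 (plus) and that of Pycard chr7:127993868-127994117 (minus).
Casp1: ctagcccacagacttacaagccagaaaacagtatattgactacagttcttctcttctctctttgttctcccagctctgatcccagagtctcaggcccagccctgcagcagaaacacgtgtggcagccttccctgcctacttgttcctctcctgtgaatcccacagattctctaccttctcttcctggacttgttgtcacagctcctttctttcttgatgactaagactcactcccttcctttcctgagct
Casp4: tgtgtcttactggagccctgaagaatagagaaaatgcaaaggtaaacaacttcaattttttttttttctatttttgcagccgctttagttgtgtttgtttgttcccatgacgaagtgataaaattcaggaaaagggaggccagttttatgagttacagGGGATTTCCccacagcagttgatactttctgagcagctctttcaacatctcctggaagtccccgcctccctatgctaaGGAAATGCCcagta
Il1r2: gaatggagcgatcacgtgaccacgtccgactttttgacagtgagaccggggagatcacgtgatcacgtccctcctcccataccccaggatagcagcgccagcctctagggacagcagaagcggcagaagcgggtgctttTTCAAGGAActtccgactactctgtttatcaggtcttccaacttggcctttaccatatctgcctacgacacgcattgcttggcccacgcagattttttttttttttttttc
Pycard: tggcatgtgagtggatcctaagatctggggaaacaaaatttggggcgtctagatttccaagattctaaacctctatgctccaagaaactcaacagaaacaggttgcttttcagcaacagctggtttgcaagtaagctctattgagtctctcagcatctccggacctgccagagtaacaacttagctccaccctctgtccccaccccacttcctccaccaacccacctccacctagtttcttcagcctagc

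Casp4 had 2 kappaB matches, at bases -92 to -84 and -14 to -6 from its start site, the second on the other strand. A second Casp4 start site gave a window with the same 2 matches. Il1r2 had 1 STAT match at -111 to -103, in a window that lies inside the longer gene model given above. Each of 2 Nlrp3 windows had 1 kappaB match. The windows of Casp1, Pycard, Casp8, Nlrp1b, Il18 and Il1b held none of the 4 motifs. These are matches of letters in the reference, with no binding measured.

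Casp8 (chr1:58795374-58847503, plus strand) encodes an initiator caspase of death receptor signalling that can also join inflammasomes. Its levels at 0 h were nearly the same in all mice, 133, 130 and 136 CPM in WT and 129, 133 and 128 CPM in Aim2-/- mice. At 3 h it was at 189, 203 and 268 against 181, 182 and 195 CPM, above 0 h in every mouse. The rise was 0.73 ± 0.10 in WT (adjusted p 7.4e-06) and 0.52 ± 0.10 in Aim2-/- cells (adjusted p 0.00037), and the difference between these rises was -0.21 ± 0.14 (adjusted p 0.9999).

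At 6 h Casp8 was still higher, at 159, 159 and 196 CPM in WT (0.37, adjusted p 0.0034) and 153, 155 and 152 CPM in Aim2-/- mice (0.24, adjusted p 0.0443). The second of these calls was lost with RLE size factors (0.18, adjusted p 0.154), with DESeq2, with no filter on low counts, with WT 3 left out and with any Aim2-/- mouse left out (adjusted p 0.132 to 0.167 over these 4 mice). At 24 h it had returned to 138 to 148 CPM and was not called in either genotype, although with mouse as a block the step from 6 h to 24 h in WT cells was a fall (-0.22, adjusted p 0.0188). Casp8 was the 1 member with a lower mean in Aim2-/- cells at all 4 times, and none of these differences passed the test (log2 -0.03, -0.24, -0.16 and -0.06 in order of time, and -0.03, -0.34, -0.21 and -0.06 without the mouse labelled WT 1). The mouse labelled WT 1 was not above WT 3 and WT 4 at any time.

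Gsdmd (chr15:75862327-75867408, plus strand) encodes gasdermin D. It stood at 87.4, 86.3 and 80.8 CPM in WT and 106, 86.3 and 99.3 CPM in Aim2-/- mice at 0 h. At 3 h it was at 125, 104 and 115 against 122, 117 and 144 CPM and at 6 h at 109, 116 and 121 against 140, 124 and 134 CPM, above 0 h in every mouse. Log2 changes were 0.43 and 0.44 in WT (adjusted p 0.0095 and 0.0048) and 0.39 and 0.45 in Aim2-/- cells (adjusted p 0.0192 and 0.0044), each ± 0.12. Of these 4 calls, 3 were lost with some mouse left out, and all 4 were kept with mouse as a block. At 3 h in WT cells the adjusted p was 0.0835 without WT 1 and 0.0857 without WT 4. At 3 h in Aim2-/- cells it was 0.0611 without Aim2-/- 2 and 0.196 without Aim2-/- 4. At 6 h in WT cells it was 0.0762 without WT 4.

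By 24 h Gsdmd had dropped below its starting level, to 44.0, 31.6 and 44.5 CPM in WT and 69.0, 51.3 and 58.6 CPM in Aim2-/- mice. The fall from 0 h was 2.12-fold in WT (-1.08 ± 0.13, adjusted p 1.2e-07) and 1.63-fold in Aim2-/- cells (-0.70 ± 0.12, adjusted p 3.7e-05), and both held with any mouse left out. The genotypes did not overlap at 24 h, and the difference of 0.58 ± 0.13 passed the test (adjusted p 0.0379, or 0.0436 without the mouse labelled WT 1). It was lost without WT 3, WT 4, Aim2-/- 1 or Aim2-/- 4 (adjusted p 0.106 to 0.371) and with limma-voom (0.111), there also with mouse as a random block. The difference between the falls was 0.38 ± 0.18 (adjusted p 0.403).

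Nlrp3 (chr11:59541568-59566956, plus strand) encodes the sensor that responds to ion fluxes and membrane damage. It was low in WT mice, at 0.600, 0.465 and 0.659 CPM (9 to 13 counts) at 0 h, and higher in Aim2-/- mice, at 4.21, 1.53 and 1.18 CPM (24 to 87 counts). At 6 h it was at 0.709, 0.925 and 0.828 against 4.92, 1.71 and 2.12 CPM. Mouse Aim2-/- 1 was thus well above the rest. The genotypes did not overlap at any of the 4 times, though at 24 h by few counts (5, 4 and 5 against 49, 7 and 7). The difference passed the test at 6 h alone (1.83 ± 0.60, 3.54-fold, adjusted p 0.0459), and it was lost there without WT 1, WT 3, WT 4 or Aim2-/- 4 (adjusted p 0.0664 to 0.162) and with limma-voom (0.0514). At 0, 3 and 24 h it was 1.99, 1.23 and 2.10 (adjusted p 0.0652, 0.325 and 0.127), with 0.0425 at 0 h when mouse was a random block in limma-voom. Without the mouse Aim2-/- 1 the differences were smaller, at 1.23, 0.74, 1.22 and 0.57 in order of time (adjusted p 0.0555, 0.414, 0.0396 and 0.789). Without Aim2-/- 2 they were called at 0 h and 24 h as well (2.22 and 2.51, adjusted p 0.0275 and 0.0228).

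Over time Nlrp3 was called from 6 h to 24 h, at which point it was at 0.253, 0.206 and 0.257 CPM in WT and 2.40, 0.353 and 0.359 CPM in Aim2-/- mice. These falls were -1.76 ± 0.73 (adjusted p 0.0449) and -1.48 ± 0.59 (adjusted p 0.0404). The WT call was lost with any WT mouse left out (adjusted p 0.126 to 0.186), and the Aim2-/- call with any WT mouse, Aim2-/- 2 or Aim2-/- 4 left out (0.0628 to 0.136), while without Aim2-/- 1 the fall was -2.41 (adjusted p 2.5e-05). With mouse as a block Nlrp3 also rose at 3 h in WT cells (0.93, adjusted p 0.0369) and fell from 0 h to 24 h in both genotypes (-1.25 and -1.28, adjusted p 0.0158 and 0.0009).

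Nlrp1b (chr11:71153102-71230733, minus strand) encodes a sensor known for its response to anthrax lethal toxin. Its reads can be confused with those of the near copy Nlrp1a, so its level is uncertain. It was at 1.35, 0.879 and 0.710 CPM in WT and 1.89, 1.03 and 1.48 CPM in Aim2-/- mice at 0 h. At 6 h it was at 2.39, 1.51 and 1.85 against 3.82, 3.00 and 2.07 CPM, higher than at 0 h in all 6 mice. The rise was called in Aim2-/- cells (1.01 ± 0.40, adjusted p 0.0391) and not in WT cells (0.97 ± 0.41, adjusted p 0.0577, or 0.0104 with mouse as a block). The difference between them was 0.05 ± 0.59 (adjusted p 0.989). The Aim2-/- call was lost without WT 4, Aim2-/- 1 or Aim2-/- 2 (adjusted p 0.0586 to 0.199).

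At 24 h Nlrp1b was at 0.659, 0.308 and 0.770 against 1.76, 1.56 and 0.667 CPM. It fell from 6 h by 1.72 ± 0.43 on the log2 scale in WT (adjusted p 0.0020) and by 1.15 ± 0.40 in Aim2-/- cells (adjusted p 0.0199, or 0.0794 without Aim2-/- 4). No genotype difference passed the test (log2 0.58, 0.39, 0.63 and 1.19 in order of time, and 0.88, 0.55, 0.82 and 1.30 without the mouse labelled WT 1).

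Il1b (chr2:129364570-129371139, minus strand) encodes the precursor of IL-1β. It was at 0.25, 3.88 and 1.93 CPM in WT and 18.2, 5.07 and 8.52 CPM in Aim2-/- mice at 0 h. All Aim2-/- mice were above all WT mice then and at the 3 later times. The difference at 0 h was 5.25-fold (2.39 ± 0.68, adjusted p 0.0453), and it was lost without WT 1 (1.87, adjusted p 0.0944) and without WT 3, WT 4, Aim2-/- 1 or Aim2-/- 4 (adjusted p 0.110 to 0.235), ranging from 1.75 without Aim2-/- 1 to 3.23 without WT 3. Here the mouse labelled WT 1 was the lowest of all, unlike for Casp1, Casp4 and Il1r2. At 3, 6 and 24 h the differences were 1.96, 1.53 and 2.33 (adjusted p 0.199, 0.137 and 0.104), and 1.65, 1.32 and 2.54 without the mouse labelled WT 1 (0.177, 0.202 and 0.098).

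After stimulation Il1b went to 0.695, 1.84 and 1.45 against 7.14, 2.02 and 6.36 CPM at 3 h, to 0.621, 0.779 and 1.27 against 4.35, 1.34 and 1.97 CPM at 6 h, and to 1.06, 0.977 and 0.462 against 5.58, 2.17 and 4.87 CPM at 24 h. The fall to 6 h was called in Aim2-/- cells (4.13-fold, -2.05 ± 0.67, adjusted p 0.0139, or 0.0849 without Aim2-/- 4). With mouse as a block Il1b was also lower at 3 h (-1.01, adjusted p 0.0216) and 24 h (-1.26, adjusted p 0.0027) in Aim2-/- cells and at 24 h in WT cells (-1.08, adjusted p 0.0468). The mouse labelled WT 1 was higher at 24 h than at 0 h, against the other 5. Exons of the antisense gene Il1bos overlap Il1b, with 118 counts beside 1726, and reads of the 2 cannot be told apart if strand was not used in counting.

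Il18 (chr9:50554827-50581840, plus strand) encodes the precursor of IL-18. Its counts at 0 h were 14, 8 and 8 for the WT mice, then 31, 10 and 18 for the Aim2-/- mice, or 0.406 to 0.700 and 0.492 to 1.501 CPM. At 6 h they were 8, 4 and 4 against 27, 17 and 18, and at 24 h 6, 0 and 1 against 6, 3 and 4. The last values lie at or near the floor in both genotypes, with 3 counts or fewer in WT 3, WT 4 and Aim2-/- 2. The fall to 24 h passed the test in WT (-2.04 ± 0.65, adjusted p 0.0082, with -3.71 and 0.0010 without the mouse labelled WT 1 and 0.0576 without WT 4) and in Aim2-/- cells (-2.12 ± 0.57, adjusted p 0.0024). Since WT levels at 24 h were mostly under the floor, the fitted change in WT cells depends on how a count of 0 is treated.

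At 6 h the genotypes did not overlap in Il18, at 0.195 to 0.355 against 0.786 to 1.19 CPM. The difference was 1.90 ± 0.55 (adjusted p 0.0290, or 0.0199 without the mouse labelled WT 1), and it was lost without WT 3, WT 4, Aim2-/- 1 or Aim2-/- 4 (adjusted p 0.0858 to 0.131).

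Counted over the 10 genes, the genotype difference was called for 1 gene at 0 h (Il1b), 0 at 3 h, 3 at 6 h (Pycard, Nlrp3, Il18) and 1 at 24 h (Gsdmd), each higher in Aim2-/- cells. Of all genes 3.24% were higher and 1.99% lower at 0 h, 0.254% and 0.0392% at 3 h, 8.78% and 7.01% at 6 h, and 0.659% and 0.00653% at 24 h. Leaving out the mouse labelled WT 1 gave 3, 0, 5 and 2 calls, where 6%, 2.78%, 11.9% and 1.08% of all genes were called. At an unadjusted p under 0.05 there were 2, 4, 5 and 5 of the 10 genes, beside 23.8%, 15.3%, 34.1% and 20.5% of all genes. With all mice the median log2 difference of the 10 genes was 0.58, 0.47, 0.72 and 0.90 in order of time, beside medians between -0.01 and 0.05 over all genes. With the 4 libraries of a mouse summed, 0 of 10 were called by edgeR (0.0117% of 17163 genes). There 6 of 10 had an unadjusted p under 0.05 (23.3% of all genes), and DESeq2 called 3 (10.1%). The change after stimulation differed between genotypes in 0 of 10 genes at 3, 6 and 24 h, and in 0%, 0.0261% and 0% of all genes. At an unadjusted p under 0.05 there were 0, 1 and 1 (4.26%, 13.2% and 11.9% of all genes).

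The members higher in Aim2-/- cells included genes known from myeloid cells, and the monocyte and macrophage marker sums were also higher in Aim2-/- mice. Mouse Aim2-/- 1 had the highest monocyte and macrophage marker sum at every time (343, 185, 194 and 176 CPM) and the highest Nlrp3 and Il1b level at every time. At 0 h it also had the highest B cell, dendritic cell, basophil and mast cell, and erythroid sums (42.3, 61.6, 135 and 250 CPM). The neutrophil markers were high in that mouse alone, at 68.8 CPM at 0 h beside 4.58 and 4.92 in the other Aim2-/- mice. The other mice did not keep a shared order. At 6 h WT 1 had the highest WT monocyte and macrophage sum (50.7 CPM) but the lowest Nlrp3 and Il1b (0.709 and 0.621 CPM). At 0 h that sum was 178 CPM in Aim2-/- 4 and 107 in Aim2-/- 2, with Il1b at 8.52 and 5.07 and Nlrp3 at 1.18 and 1.53 CPM. Lyz2, a macrophage lysozyme, was at 16.8 to 34.8 CPM in WT and 75.1 to 244 CPM in Aim2-/- mice at 0 h. The part of any of these cells in the genotype differences was not tested.

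**Figure D5:**
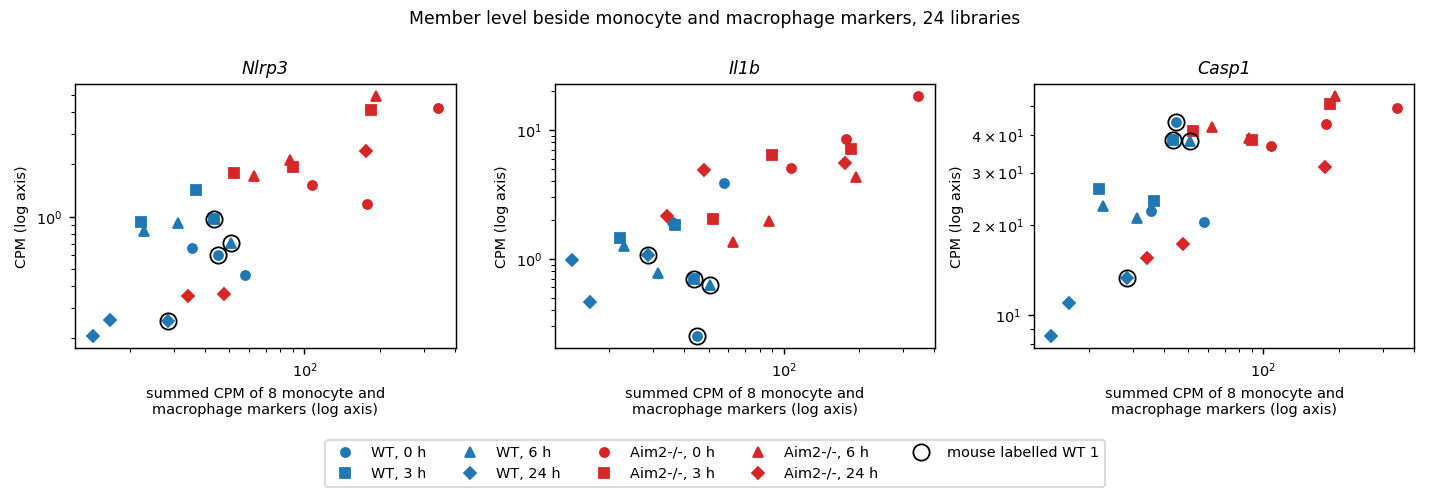
CPM of Nlrp3, Il1b and Casp1 against the summed CPM of 8 monocyte and macrophage markers in 24 libraries, both on log axes, WT blue, Aim2-/- red, one symbol per time and black rings round the mouse labelled WT 1. The Aim2-/- libraries at 0 h lie at marker sums of 107 to 343 CPM and the WT libraries at 35.6 to 57.7, and in the Casp1 panel the rings at 0 and 3 h lie within the range of the Aim2-/- libraries of the same time.

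The genes whose log2 CPM ran most like each member over the 24 libraries differed from member to member. Casp8 ran with Tap1 (Pearson r 0.949), Irf1 (0.916) and Tgtp1 (0.913), Pycard with Maz (0.961), Cd52 and Bscl2, and Gsdmd with Usp35 (0.969), Tmem106a and Rab19. Casp1 and Il1r2 shared Nrbp2 among their 3 nearest genes (0.967 and 0.957), and Casp4 ran with Ndrg4 (0.962). Il1b was nearest to Hdc (0.846), the histidine decarboxylase of histamine synthesis, Clec4n and Mmp19, Nlrp3 to Cmtm3 (0.935), and Nlrp1b to Vwa5a (0.898). These coefficients describe libraries that share mice and times.

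Of 57 further genes of the pathway, 56 were in the table and 50 were tested. In WT cells 8 rose and 8 fell at 3 h, 12 and 12 at 6 h and 19 and 23 at 24 h, and in Aim2-/- cells 7 and 9, 14 and 14, and 17 and 22. In both directions together that was 32%, 48% and 84% of the 50 in WT cells (32.6%, 51.1% and 71.4% of all genes) and 32%, 56% and 78% in Aim2-/- cells (30.7%, 51.2% and 70.3%). Zbp1, a nucleic acid sensor of necroptosis, was at 53.7 ± 9.24 CPM at 0 h and 318 ± 98.1 CPM (SD, n = 3) at 3 h in WT cells, and rose in Aim2-/- cells from 55.8 ± 3.27 to 239 ± 49.7 CPM (adjusted p 4.8e-08 and 7.9e-07), whereas Irak3, an inhibitor of IL-1 receptor signalling, fell from 26.5 ± 3.55 to 7.95 ± 0.844 CPM in the former and from 20.7 ± 2.02 to 8.63 ± 1.16 CPM in the latter (adjusted p 2.7e-07 and 1.7e-05). At 24 h Il18r1, a chain of the IL-18 receptor, was down to 9.42 ± 1.98 CPM in WT (150 ± 25.5 at 0 h) and to 18.3 ± 7.48 CPM in Aim2-/- cells (155 ± 8.23 at 0 h) (adjusted p 5.4e-12 and 1.5e-10). Il1a, the other IL-1 gene, had 0 counts in the WT libraries at 0 h and 1.63 ± 0.656 CPM at 24 h (adjusted p 1.6e-05). Txnip, a regulator of glucose uptake that binds Nlrp3, fell from 1100 ± 99.2 to 73.1 ± 16.3 CPM at 24 h in WT cells (adjusted p 4.9e-14).

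Between genotypes, 2 of these 50 genes were higher and 1 lower in Aim2-/- cells at 0 h, 0 were called at 3 h and 24 h, and 8 were higher and 4 lower at 6 h. That was 6% of the 50 at 0 h and 24% at 6 h, beside 5.23% and 15.8% of all genes. Without the mouse labelled WT 1, 5 were higher and 1 lower at 0 h and 11 and 2 at 6 h, where 6% and 11.9% of all genes were called. At 0 h Mefv, the pyrin sensor, was at 5.59 ± 4.24 CPM beside 0.710 ± 0.174 in WT mice (adjusted p 0.0285), and Cflar, an inhibitor of caspase-8, at 150 ± 9.57 beside 197 ± 9.82 CPM (adjusted p 0.0149). At 6 h the sensor gene Naip5 was at 15.5 ± 5.90 beside 5.82 ± 1.57 CPM (adjusted p 0.0306), and Serpinb1a, a serine protease inhibitor, at 11.6 ± 4.64 beside 4.28 ± 0.288 CPM (adjusted p 0.0311). Each of these 4 calls was lost with some mouse left out: Mefv without WT 1, WT 3, WT 4 or Aim2-/- 4 (adjusted p 0.0584 to 0.158), Cflar without WT 3, WT 4 or Aim2-/- 4 (0.0598 to 0.092), Naip5 without WT 3, WT 4, Aim2-/- 1 or Aim2-/- 4 (0.0776 to 0.148), and Serpinb1a without any mouse other than Aim2-/- 2 (0.0740 to 0.134). The monocyte and macrophage marker sums given above were higher in Aim2-/- mice at the same times (62.6 to 194 CPM at 6 h beside 22.9 to 50.7 in WT), and their part in these differences was not tested.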

How the data were processed

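The cells were splenic CD4+ T cells, unstimulated or given anti-CD3 and anti-CD28. For such cells the study's methods give negative immunomagnetic selection, plate-bound anti-CD3 and soluble anti-CD28. Per the labels, the authors sequenced stranded mRNA libraries, aligned reads with STAR to GRCm38 and deposited raw counts per gene. The submitters' processing notes also name DESeq2 and edgeR. Versions and the strand setting of counting are not given in the sources used here. Symbols came from GENCODE M21 and were found for 54409 of 54446 identifiers. Promoter windows came from RefSeq (GRCm38.p6).

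From the counts, CPM was computed over library totals multiplied by TMM factors (0.928 to 1.09). Tests used edgeR 4.0.16 (R 4.3.3): filterByExpr (minimum count 10), TMM factors, a quasi-likelihood fit with 1 mean per group over 24 libraries, two-sided, Benjamini-Hochberg adjustment over all 15325 genes tested, called at an adjusted p under 0.05. The biological coefficient of variation was 18.6%. The code was tested on simulated data. Libraries of the same mouse, as named in the labels, deviated together (r 0.139 to 0.567 over 36 pairs, against -0.432 to 0.0742 over 72 pairs of different mice), so mouse was fitted as a block in an alternative. Other alternatives were RLE size factors, library totals only, DESeq2 1.42.0, limma-voom 3.58.1, no filter, and each mouse left out. Detection floors of 3 counts cover counting error only.

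The 10 genes, the pathway list and the marker lists were chosen with earlier results of these data known. All 10 are named. Of the pathway list, up to 3 called genes per comparison with the largest change and at least 1 CPM could be named, and like genes are the 3 with the highest Pearson correlation for members averaging at least 1 CPM. Genes named from the marker lists, such as Lyz2 and Foxp3, were chosen after their values were seen.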

Additional observations from a re-analysis of the deposited data

Results flagged for a closer look

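Pycard at 6 h was the single result that met a rule for a closer look, because every WT mouse was lower and every Aim2-/- mouse higher than at 0 h. The difference between the changes was 0.60 ± 0.19 on the log2 scale (SE, adjusted p 0.171), and 0.59 (adjusted p 0.0203) with mouse as a block.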

How the results depend on the processing

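There were 44 calls among the 10 genes and 14 alternatives. None reversed, 25 were kept with every mouse left out in turn and 24 in every alternative in which they were computed. With mouse as a replicate block the calls were 4 at 3 h and 6 at 6 h in WT cells, 5 at 3 h in Aim2-/- cells and 1 for the difference between genotypes at 6 h (Pycard), and the block ended no call. The shares of all genes called there were 42.7%, 59.2%, 41.2% and 4.68% in the same order. With no filter on low counts there were 2 at 6 h in Aim2-/- cells (23.2% of all genes). Between genotypes there were then 2, 1, 5 and 5 at 0, 3, 6 and 24 h (4.78%, 2.47%, 9.38% and 3.07%), with 1 when the libraries of a mouse were summed (1.73%). DESeq2 gave 2 between genotypes at 0 h (10.2% of all genes), 3 at 24 h (5.14%) and 3 summed (10.1%). At 24 h limma-voom gave 0, and with mouse as a random replicate block it gave 2 at 0 h and 0 at 24 h. Of 15325 genes these fits called 5, 1264 and 35 in the same order. With the mouse number as a replicate block, although the numbers name different mice in the genotypes, 4, 4, 7 and 6 were called at 0, 3, 6 and 24 h, beside 23.6%, 15.2%, 36% and 21.1% of all genes. The p-values of that fit do not measure the spread between mice. For the further pathway genes DESeq2 called 7, 2 and 11 between genotypes at 0, 3 and 24 h, beside 10.2%, 2% and 5.14% of all genes. With no filter there were 8, 7 and 10 at these times (4.78%, 2.47% and 3.07%). Library totals, added after the data had been seen, called 1 at 24 h, beside 120 of 15325 genes. The cause of these shifts was not tested.

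Leaving out each mouse gave 1 to 3 calls at 3 h in WT cells (1 without WT 1 or WT 4), 1 to 3 at 3 h in Aim2-/- cells (1 without Aim2-/- 4), 2 to 4 at 6 h (2 without any of the Aim2-/- mice) and 5 to 7 from 6 h to 24 h (5 without Aim2-/- 2 or 4). Of 15325 genes these fits called 2973 to 5356, 2808 to 4512, 6309 to 7783 and 6894 to 8294 in the same order. Between genotypes it gave 0 to 3 at 0 h, 0 to 1 at 3 h, 0 to 5 at 6 h, 0 to 4 at 24 h and 0 to 5 summed. The highest were without WT 1 at 0 and 6 h and without Aim2-/- 2 at 3 and 24 h and summed, and no member was called at 0, 6 or 24 h without WT 4. The calls over all 15325 genes moved as well, from 30 to 2135 at 0 h and 1 to 1150 at 3 h. They ran from 71 to 4015 at 6 h and 3 to 2705 at 24 h, and from 0 to 2676 of 17163 genes summed. Each of these was highest without Aim2-/- 2. For the pathway genes, where leaving out mice was added after the data had been seen, the counts between genotypes were 0 to 10 at 0 h (6 without WT 1, 0 without WT 3, WT 4 or Aim2-/- 4), 0 to 9 at 3 h, 0 to 20 at 6 h (1 without WT 3, 0 without WT 4, 2 without Aim2-/- 1, 3 without Aim2-/- 4) and 0 to 19 at 24 h, each highest without Aim2-/- 2, and their counts after stimulation moved by less than 1.5 times. Library totals alone shifted the median of all genes to 0.12 and 0.13 at 3 h and 0.11 and 0.20 at 6 h. With 3 mice a group, counts of 0 to 31 limit what can be said of Il18.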
